A study of Homo sapiens with 18 samples.

Results

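Knockout clone 3 of SMARCAL1 was compared with its control in the PLATE-seq data, a pooled plate-based assay that counts polyadenylated RNA. The comparison held the 2 libraries whose titles name SMARCAL1 knockout clone 3 and the 2 libraries whose titles name the control, 4 of the 12 PLATE-seq libraries and of the 18 libraries of the series. The cells were MDA-MB-436, a human triple-negative breast carcinoma line that is widely used, grown in DMEM with a bovine growth serum and antibiotics. Control libraries carried the genotype label control, and clone 3 libraries carried the knockout label. No drug, transfection or time point was named for either group, and the labels do not say how the gene was disrupted. Clone 3 is 1 clonal line, so what is particular to that clone and what follows from the knockout cannot be told apart within this comparison. The other PLATE-seq groups, each of 2 libraries, were knockout clones 1 and 2 and cells transfected with a control siRNA or one against SMARCAL1, and a separate set of 6 TruSeq total RNA libraries held 3 of a control and 3 of clone 1. The titles name MDA-MB-436 throughout, whereas the cell line tags of the control libraries read MDA-MB-437 and MDA-MB-438 and those of the clone 3 libraries read MDA-MB-443 and MDA-MB-444. The titles were followed.

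SMARCAL1 is an ATP-driven annealing helicase that binds RPA-coated single-stranded DNA and remodels stalled replication forks. Loss of fork remodelling can leave damaged DNA that reaches the cytosol, where the cGAS and STING sensors switch on interferon and NF-kappa-B target genes, among them cytokines. CD274 encodes PD-L1, the ligand by which tumour cells restrain T cells, and triple-negative lines such as MDA-MB-436 make many inflammatory secreted proteins of their own.

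The 2 groups lay at opposite ends of the depth range. The control libraries held 890402 and 807861 counts and the clone 3 libraries 2411594 and 3068887, so that 3 counts, the level used here for a gene with no counts, stood at 3.32 and 3.72 CPM (counts scaled to a common library size) in the control and at 1.33 and 0.911 CPM in clone 3. Clone 3 replicate 2 stood apart from the other 11 libraries. Mitochondrially encoded transcripts made up 24.6% of its counts against 28.8% to 34.3% in the others, and its 20 most abundant genes held 35.6% against 38.8% to 44.6%. The clone 3 pair differed by a chi-square of 21.7 per degree of freedom, against 6.46 to 9.58 in the other 5 groups, a measure that grows with depth. Over 4294 genes at 20 CPM or more the SD of the log2 difference between the clone 3 libraries was 0.624, within the 0.563 to 0.684 of the other groups. Replicate 2 had the highest score, 28.3, on the first principal component, where clone 3 replicate 1 scored 9.60. Calls and list medians are therefore given with and without this library, with the filter on low counts applied anew, so that a list can gain a few members. The part that depth and this library play in the calls was not tested beyond those values. Of 15 leukocyte markers none passed the filter on low counts, and their summed level was 2.90 to 15.3 CPM on library totals over the 4 libraries, with PTPRC, CD3D and CD3E at 0 counts.

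SMARCAL1 itself was not lower in the clone 3 libraries. It had 0 and 3 counts in the control libraries and 16 and 44 counts in the clone 3 libraries, which were 7.11 and 13.4 CPM in clone 3. Per library total the clone 3 libraries held 6.20 times the SMARCAL1 counts of the control, with an exact 95% interval of 2.02 to 30.9 that covers counting error only. In the fit the log2 difference was 2.46 ± 1.35 (SE), with an edgeR adjusted p of 0.487. A polyadenylated-RNA count does not show whether a transcript carries a disrupting edit, so these counts do not test the knockout label. SMARCAL1 also shares exon bases with genes on the other strand, and no strand setting is stated. CD274 stood at 12.2 and 2.48 CPM in the control and at 8.0 and 19.1 CPM in clone 3. The groups overlapped, and the log2 difference was 0.87 ± 0.75 (SE), with an edgeR adjusted p of 0.690.

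Of 8595 genes tested, 57 (0.663%) passed an adjusted p of 0.05 in edgeR's quasi-likelihood F test with all 12 PLATE-seq libraries in 1 fit, 26 higher in clone 3 (0.303%) and 31 lower (0.361%). At an unadjusted p under 0.05 there were 1026 genes (11.9%). The 2 libraries of each group did not overlap for any of the 57, where 22.7% of all genes tested lay higher in clone 3 without overlap and 19.3% lower. "Rose" and "fell" are used below only for genes past the threshold. The calls depended on single libraries. There were 13 without clone 3 replicate 2 and 131 without clone 3 replicate 1, 7 without control replicate 1 and 27 without control replicate 2. Of the 57, 10 passed without clone 3 replicate 2, the falls TENM2, EDN1, SAA1, NSA2 and IL1A and the rises ATP6V0B, PPP1R14B, DKK1, MMAB and Y_RNA, and 41 passed without clone 3 replicate 1. TENM2, SAA1 and IL1A passed in each of the 4 omissions, NSA2, KNOP1, ATP6V0B, PPP1R14B and Y_RNA passed in 3, and 11 of the 57 passed in none, among them CSF3, CLDN1, DNER, PTPN14, PLAG1 and NEDD4. The control libraries mattered as well. Against the siRNA control 13 of the 57 passed, and the log2 change was over 1.5 times smaller there for 14 of the 26 rises and 17 of the 31 falls. In whole-culture RNA, fewer cells that make a transcript and less of it per cell cannot be told apart.

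Of 19 cytokine and chemokine genes tested, IL1A and CSF3 fell and 0 rose, where 0.361% of all 8595 genes tested fell. The secreted proteins SAA1 and EDN1 fell too. SAA1, an acute-phase apolipoprotein, stood at 341 and 464 CPM in the control libraries and at 60.0 and 40.4 CPM in the clone 3 libraries. Both clone 3 libraries lay far below both control libraries, and the log2 change was -3.01 ± 0.31 (SE), with an edgeR adjusted p of 6.09e-06. SAA1 passed in all 11 other alternatives that were run as well as in the 4 omissions. IL1A, the alarmin cytokine interleukin 1 alpha (chr2:112773915-112784590 on the minus strand, GRCh38, protein-coding), stood at 338 and 484 CPM in the control and at 76.4 and 122 CPM in clone 3. It fell by 2.04 ± 0.29 (SE) on the log2 scale, with an edgeR adjusted p of 0.00113. CSF3, the granulocyte colony-stimulating factor, stood at 616 and 537 CPM in the control and at 197 and 253.5 CPM in clone 3. CSF3 fell by 1.35 ± 0.28 (SE) on the log2 scale (edgeR adjusted p 0.0267), and its adjusted p was 0.0527 to 0.148 in each of the 4 omissions. EDN1, which encodes the peptide endothelin 1, is outside the rule for named genes because its control mean was under 20 CPM, and it was chosen after its values were seen. It stood at 25.4 and 9.92 CPM in the control and at 0 and 2.13 CPM in clone 3, a log2 change of -3.80 ± 0.78 (SE) with an edgeR adjusted p of 0.0267. The EDN1 value was -2.95 with an adjusted p of 0.310 without control replicate 1, -3.01 with 0.0624 without clone 3 replicate 1 and -7.56 with 0.0182 without clone 3 replicate 2, which leaves clone 3 at 0 counts. All 4 genes were thus high in both control libraries relative to both clone 3 libraries.

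**Figure D1:**
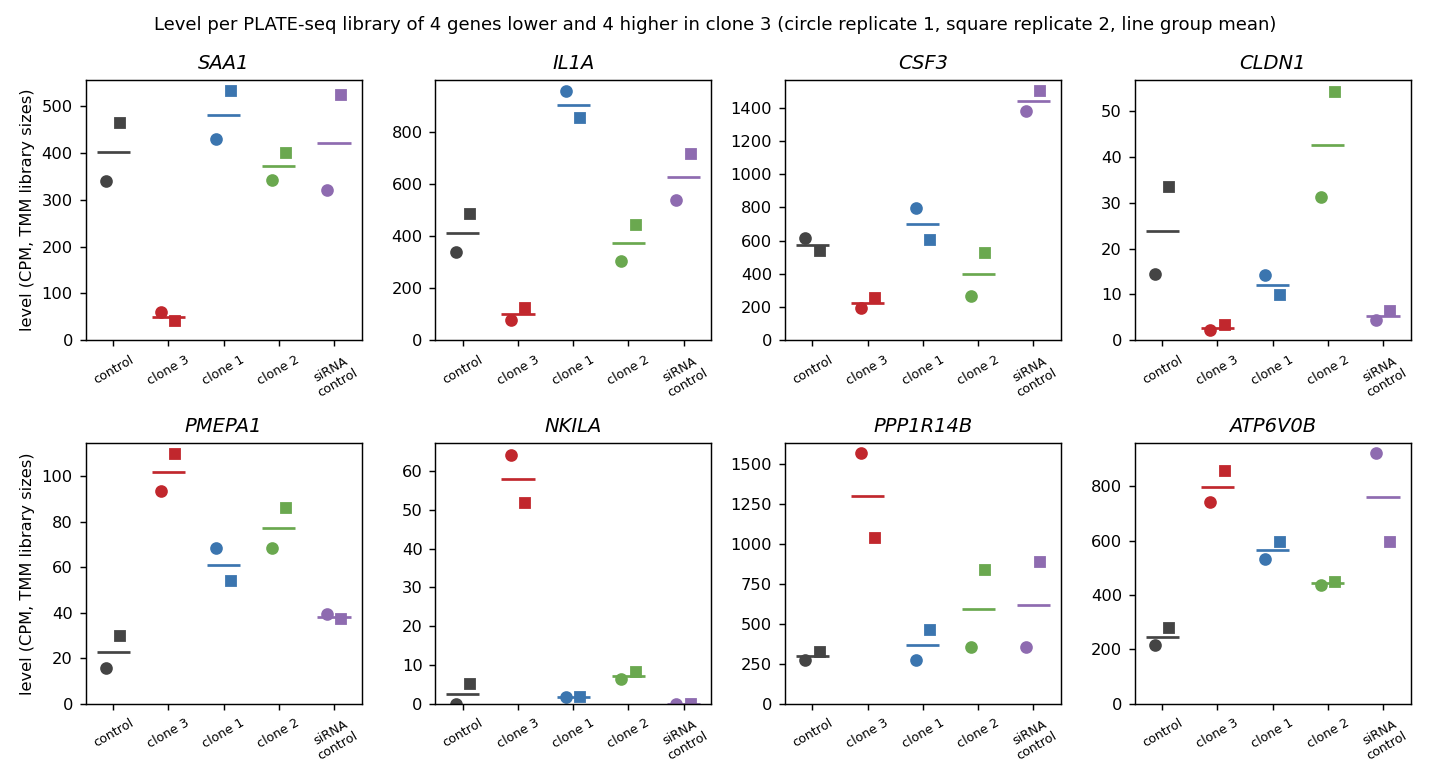
Level in CPM (linear axis from 0) in each PLATE-seq library of the control, clone 3, clones 1 and 2 and the siRNA control for SAA1, IL1A, CSF3 and CLDN1, which fell in clone 3, and PMEPA1, NKILA, PPP1R14B and ATP6V0B, which rose. Circles are replicate 1, squares replicate 2 and lines the mean of 2 libraries. Both clone 3 libraries of SAA1, at 60.0 and 40.4 CPM, lie below the other 8 libraries drawn.

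The start regions of IL1A and EDN1 are shown because these are the 2 falling cytokine and peptide-hormone genes with a RefSeq window, which runs from 250 bases before to 50 after an annotated start. Capitals mark matches, on either strand, to 3 short motifs. The TATA box was searched as TATAAA. The motif of AP-1, the factor of the JUN and FOS families, was searched as TGANTCA. The motif of C/EBP factors was searched as TTGCNNAA. The window of the first IL1A start is chr2:112784444-112784743 on the minus strand and that of the third EDN1 start chr6:12290111-12290410 on the plus strand, both in GRCh38.p14 from RefSeq, written 5′ to 3′ on the strand of the gene.
IL1A: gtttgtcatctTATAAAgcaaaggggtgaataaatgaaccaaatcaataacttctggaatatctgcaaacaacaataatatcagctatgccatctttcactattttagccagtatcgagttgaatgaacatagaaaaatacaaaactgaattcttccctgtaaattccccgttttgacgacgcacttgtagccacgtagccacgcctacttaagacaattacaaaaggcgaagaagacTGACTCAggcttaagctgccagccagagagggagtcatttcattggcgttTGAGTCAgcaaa
EDN1: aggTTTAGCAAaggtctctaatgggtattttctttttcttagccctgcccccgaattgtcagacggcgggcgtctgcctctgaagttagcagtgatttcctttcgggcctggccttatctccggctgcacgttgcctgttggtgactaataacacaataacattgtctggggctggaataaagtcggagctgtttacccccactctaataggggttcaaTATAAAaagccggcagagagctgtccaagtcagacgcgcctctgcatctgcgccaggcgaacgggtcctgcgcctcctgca
In the IL1A window the AP-1 letters begin 12 bases before the start and again 39 bases after it, and the TATA box letters begin 239 bases before it. In the EDN1 window a C/EBP match begins 247 bases before the start and the TATA box letters 31 bases before it. Over all 35116 windows, 7.71% held the AP-1 letters, 10.5% the C/EBP letters and 11.5% the TATA box letters. Of the 20 genes that fell and have a window, 4 held AP-1, 5 C/EBP and 6 TATA box letters in any of their windows. Of the 19 that rose the numbers were 1, 1 and 3. A gene can have several windows, so these gene counts are not on the scale of the window shares. The share per gene over all genes is not given, and falls and rises were not tested against each other. A match is a description of the letters and not a binding site.

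Several other falls encode membrane proteins. None of the 28 tested genes in a list of surface receptors and antigens passed, and 19 of them lay above 0, so these falls are given as single genes. TENM2, a teneurin of cell-to-cell adhesion, had 18 and 22 counts in the control libraries and 0 and 2 in the clone 3 libraries. The control held 64.9 times the TENM2 counts of clone 3 per library size, with an exact 95% interval of 16.8 to 554 for counting error, and the fitted log2 change of -5.76 ± 0.89 (SE) depends on the prior count (edgeR adjusted p 0.00244). LPAR3, a lysophosphatidic acid receptor below the 20 CPM of the naming rule and chosen after its values were seen, had 11 and 20 counts in the control and 2 and 0 in clone 3. That is a ratio of 50.3 with an interval of 12.8 to 434, and its call was kept in 1 of the 4 omissions. CLDN1, the tight junction protein claudin 1, stood at 14.4 and 33.5 CPM in the control and at 2.22 and 3.34 CPM in clone 3 (log2 change -3.04 ± 0.69 SE, edgeR adjusted p 0.0387). The CLDN1 call was lost in each of the 4 omissions (adjusted p 0.0622 to 0.329). The siRNA control held 4.38 and 6.32 CPM of CLDN1, near clone 3, with a log2 difference of -0.91 against that group and of -1.97 (adjusted p 0.175) against both control groups together. DNER, a transmembrane protein with EGF repeats that can bind Notch1, stood at 38.7 and 39.7 CPM against 10.2 and 8.81 CPM in clone 3 (log2 change -2.04, edgeR adjusted p 0.0429). Without clone 3 replicate 2 its value was -1.92 with an adjusted p of 0.407, and against the siRNA control it was -0.84. PTPN14, a phosphatase that restrains YAP and not a membrane protein, stood at 75.2 and 73.2 CPM against 28.4 and 23.4 CPM, and fell by 1.52 on the log2 scale with an edgeR adjusted p of 0.04996. It passed in none of the 4 omissions (adjusted p 0.453 without clone 3 replicate 2). It was the 1 of 21 YAP and TEAD target and pathway genes that passed. The integrin chain ITGA3, named after its values were seen, stood at 602 and 723 CPM against 351 and 251 CPM (log2 change -1.14). TNFRSF10A, a death receptor for TRAIL also named after its values were seen, stood at 117 and 114 CPM against 39.5 and 41.3 CPM (log2 change -1.51). Neither passed against the siRNA control, where the log2 differences were -0.49 for ITGA3 and -0.81 for TNFRSF10A (edgeR adjusted p 0.651 and 0.485). With clone 3 replicate 2 left out, the changes from control were -0.91 for ITGA3 and -1.54 for TNFRSF10A.

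Of 43 ribosome biogenesis genes tested 3 fell, and 1 gene each fell in the lists of RNA-binding proteins and of transfer RNA synthetases. NSA2, a factor of large ribosomal subunit assembly, stood at 160.4 and 337 CPM in the control and at 54.7 and 63.8 CPM in clone 3, a fall of 2.07 ± 0.35 (SE) on the log2 scale with an edgeR adjusted p of 0.00607. KNOP1, a lysine-rich nucleolar protein, stood at 285 and 308 CPM against 103 and 53.4 CPM and fell by 1.93 ± 0.33 (SE), with the same edgeR adjusted p of 0.00607. DDX27, an RNA helicase of ribosomal RNA processing, stood at 198 and 202 CPM against 92.9 and 48.0 CPM and fell by 1.51. These were the 3 members of 43 ribosome biogenesis genes that passed, all lower, where 0.361% of all 8595 genes tested fell. The median log2 change of the 43 was -0.19 against 0.02 over all 8595 genes. Without clone 3 replicate 2 the median was -0.22 and NSA2 alone passed, KNOP1 having a value of -1.52 with an adjusted p of 0.125 and DDX27 one of -1.10 with 0.475. Against the siRNA control the values were -1.06 for NSA2, -0.58 for KNOP1 and -0.94 for DDX27, and none of the 3 passed. PABPC4, a cytoplasmic poly(A)-binding protein, stood at 275 and 171 CPM against 66.2 and 51.3 CPM (log2 change -1.93 ± 0.34 SE, edgeR adjusted p 0.00688). It was the 1 of 38 SR proteins, hnRNPs and related RNA-binding genes that passed, with -1.75 and an adjusted p of 0.116 without clone 3 replicate 2. CARS, the cysteine transfer RNA synthetase, stood at 371 and 104 CPM in the control and at 64.4 and 74.1 CPM in clone 3. Its log2 change of -1.78 was -0.57 without control replicate 1, the library in which it was high, and it was the 1 of 20 cytosolic transfer RNA synthetases that passed. NSA2, KNOP1, DDX27, PABPC4 and CARS share exon bases with genes on the other strand, and without a stated strand setting their reads cannot be told apart from those neighbours. The same limit holds for other genes named here, among them PTPN14, TNFRSF10A, ATP6V0B, DKK1, MMAB, PPP1R14B, RPLP2, RPS28, TP53I11, UBE2Q1, IFITM3, PSME2 and RPA3.

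The other falls under the naming rule belonged to no list. PLAG1, a zinc-finger transcription factor, stood at 21.01 and 44.7 CPM in the control and at 1.33 and 1.21 CPM in clone 3 (log2 change -4.60 ± 1.01 SE, edgeR adjusted p 0.0344). Its call was lost in each of the 4 omissions (adjusted p 0.0697 to 0.362). The siRNA control held 1.75 and 1.40 CPM of PLAG1, as low as clone 3, and the log2 difference against that group was -0.29 with an adjusted p of 0.982. GLYR1, a chromatin protein that helps RNA polymerase pass nucleosomes, stood at 34.3 and 23.6 CPM against 3.11 and 1.21 CPM (log2 change -3.75), and shares exon bases with UBN1 on the other strand. PSIP1, the chromatin tether LEDGF, stood at 125 and 160.0 CPM against 54.7 and 31.0 CPM (log2 change -1.74), and shares exon bases with SNAPC3 on the other strand. In each of the 3 the lower control library was over 2-fold above the higher clone 3 library. NEDD4, a HECT ubiquitin ligase, stood at 73.0 and 144 CPM against 15.1 and 31.9 CPM (log2 change -2.18). KRTAP2-3, a keratin-associated protein, stood at 64.1 and 52.1 CPM against 14.2 and 6.98 CPM (log2 change -2.47). KIAA1143 stood at 146 and 88.1 CPM against 39.1 and 24.9 CPM (log2 change -1.88). Without clone 3 replicate 2 the values were -3.18 for GLYR1, -1.37 for PSIP1, -2.83 for NEDD4, -2.02 for KRTAP2-3 and -1.58 for KIAA1143, with adjusted p of 0.406, 0.406, 0.0701, 0.362 and 0.407. Over all 31 falls the log2 change ran from -0.92 (RTN4) to -5.76 (TENM2).

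Among the rises, PMEPA1 and its antisense neighbour NKILA lie at the same place in the genome. PMEPA1, a TGF-beta-induced inhibitor of that pathway (chr20:57648392-57711536, minus strand), stood at 15.5 and 29.8 CPM in the control and at 93.8 and 109.9 CPM in clone 3. It rose by 2.18 ± 0.38 (SE) on the log2 scale, with an edgeR adjusted p of 0.00688, and by 2.06 with an adjusted p of 0.0527 without clone 3 replicate 2. It was the 1 of 18 TGF-beta pathway genes that passed. NKILA, a long non-coding RNA known to bind the NF-kappa-B complex (chr20:57710183-57712780, plus strand), stood at 0 and 4.96 CPM in the control and at 64.0 and 51.6 CPM in clone 3, a log2 change of 4.56 ± 0.90 (SE) with an edgeR adjusted p of 0.0249. The NKILA call was lost in 3 of the 4 omissions, with adjusted p of 0.161, 0.0586 and 0.116 without control replicate 1, clone 3 replicate 1 and clone 3 replicate 2, and in limma-voom (0.112). As the control held 0 and 4 counts, its value ran from 3.53 without control replicate 1 to 9.48 without control replicate 2, where the control is at 0 and the value depends on the prior count. The 2 genes share 343 of the 2598 exon bases of NKILA on opposite strands, and reads from those bases cannot be assigned to 1 of them without a strand setting.

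The window around the annotated start of NKILA is shown because it is also that of a PMEPA1 start. It is chr20:57709933-57710232 on the plus strand in GRCh38.p14 from RefSeq. Capitals mark the 267 bases that it shares, as the reverse complement, with the window of the third PMEPA1 start, chr20:57709966-57710265 on the minus strand.
NKILA: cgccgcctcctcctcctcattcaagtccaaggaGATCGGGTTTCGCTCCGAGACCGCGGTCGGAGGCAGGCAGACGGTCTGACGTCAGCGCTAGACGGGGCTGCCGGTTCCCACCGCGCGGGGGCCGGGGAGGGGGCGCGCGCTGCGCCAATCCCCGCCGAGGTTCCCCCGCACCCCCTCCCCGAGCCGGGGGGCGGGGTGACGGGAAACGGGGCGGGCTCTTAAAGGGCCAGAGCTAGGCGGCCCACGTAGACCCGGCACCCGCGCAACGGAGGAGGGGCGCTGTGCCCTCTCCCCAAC
None of the 3 motifs above has a match in this window or in that PMEPA1 window.

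DKK1, FST and METRNL, which encode secreted proteins, also rose. DKK1, a secreted WNT antagonist, stood at 11.1 and 8.68 CPM in the control and at 106 and 35.5 CPM in clone 3 (log2 change 2.82 ± 0.67 SE, edgeR adjusted p 0.0475). It was the 1 of 22 WNT pathway genes that passed, and its log2 change was 1.84 without clone 3 replicate 1. Its call was kept in 1 of the 4 omissions and in 2 of the 11 other alternatives, with adjusted p of 0.111 in DESeq2, 0.349 in limma-voom and 0.181 in the robust edgeR fit. FST, the activin-binding protein follistatin, stood at 15.5 and 11.2 CPM against 46.2 and 95.0 CPM (log2 change 2.40, edgeR adjusted p 0.0377), and had 1.79 with an adjusted p of 0.571 without clone 3 replicate 2. METRNL, a secreted meteorin-like protein, stood at 9.95 and 7.44 CPM against 30.7 and 50.1 CPM (log2 change 2.20), and had 1.81 with an adjusted p of 0.453 without that library. The clone 3 libraries of all 3 lay above both control libraries, and the 2 clone 3 libraries differed most for DKK1.

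Both clone 3 libraries lay well above both control libraries for PPP1R14B, ATP6V0B, VPS26A and TP53I11. PPP1R14B, an inhibitor of protein phosphatase 1, stood at 271 and 323 CPM in the control and at 1569 and 1037 CPM in clone 3 (log2 change 2.13 ± 0.39 SE, edgeR adjusted p 0.00969). Its adjusted p was 0.104 in the robust edgeR fit. ATP6V0B, a subunit of the vacuolar proton pump, stood at 215 and 279 CPM against 743 and 854 CPM (log2 change 1.70 ± 0.26 SE, edgeR adjusted p 0.00244). It was the 1 of 33 lysosome and proton pump genes that passed. VPS26A, a subunit of the retromer coat, stood at 49.8 and 58.3 CPM against 175 and 177 CPM (log2 change 1.71), and its adjusted p was 0.116 without clone 3 replicate 2. TP53I11 stood at 7.74 and 11.2 CPM against 57.8 and 50.7 CPM (log2 change 2.52), with an adjusted p of 0.0956 without that library. UBE2Q1, a ubiquitin-conjugating enzyme, stood at 26.5 and 36.0 CPM against 83.99 and 160.6 CPM, and its log2 change of 1.97 was 2.37 without clone 3 replicate 1 and 1.43 (adjusted p 0.380) without replicate 2. EDEM2, which trims glycans of misfolded proteins in the endoplasmic reticulum and was named after its values were seen, had 0 counts in both control libraries and 110 counts over the clone 3 libraries. Against a floor of 3 counts over the control group it was at least 11.3-fold higher in clone 3. It stood at 6.14 and 9.83 CPM in the siRNA control, against which its log2 difference was 1.22 with an adjusted p of 0.734.

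In another group of rises 1 clone 3 library carried most of the difference. RPS28, a small-subunit ribosomal protein, stood at 14.4 and 40.9 CPM in the control and at 85.8 and 690.5 CPM in clone 3, and its log2 change of 3.83 was 1.65 without clone 3 replicate 2. RPLP0, the ribosomal stalk protein, stood at 78.5 and 181 CPM against 191 and 1060.3 CPM, and its log2 change of 2.28 was 0.57 without that library. SF3B6, a subunit of the splicing factor SF3b, stood at 37.6 and 43.4 CPM against 65.8 and 414 CPM, with 2.57 and 0.71. All 3 were high in replicate 2 and much nearer the control in replicate 1. MTCH1, a protein of the mitochondrial outer membrane, stood at 16.6 and 26.1 CPM against 48.9 and 142 CPM, with a log2 change of 2.18 that was 1.21 without replicate 2. NDUFA4, a subunit of cytochrome c oxidase, stood at 279 and 216 CPM against 365 and 1137 CPM, with 1.60 and 0.57. MMAB, a cobalamin enzyme, had the reverse pattern, at 14.4 and 8.68 CPM in the control and 193 and 21.6 CPM in clone 3, and its log2 change of 3.19 was 0.89 without clone 3 replicate 1. Of the 26 rises, 8 differed by over 2-fold between the clone 3 libraries, 6 of them higher in replicate 2. Of the 31 falls 4 did, 1 of them higher in replicate 2. A further 3 falls, TENM2, LPAR3 and EDN1, had a clone 3 library at 0 counts, so no ratio was formed for them. Y_RNA, a symbol that gathers many small RNA loci and so is uncertain, stood at 37.6 and 7.44 CPM against 352 and 420.5 CPM (log2 change 4.07).

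**Figure D2:**
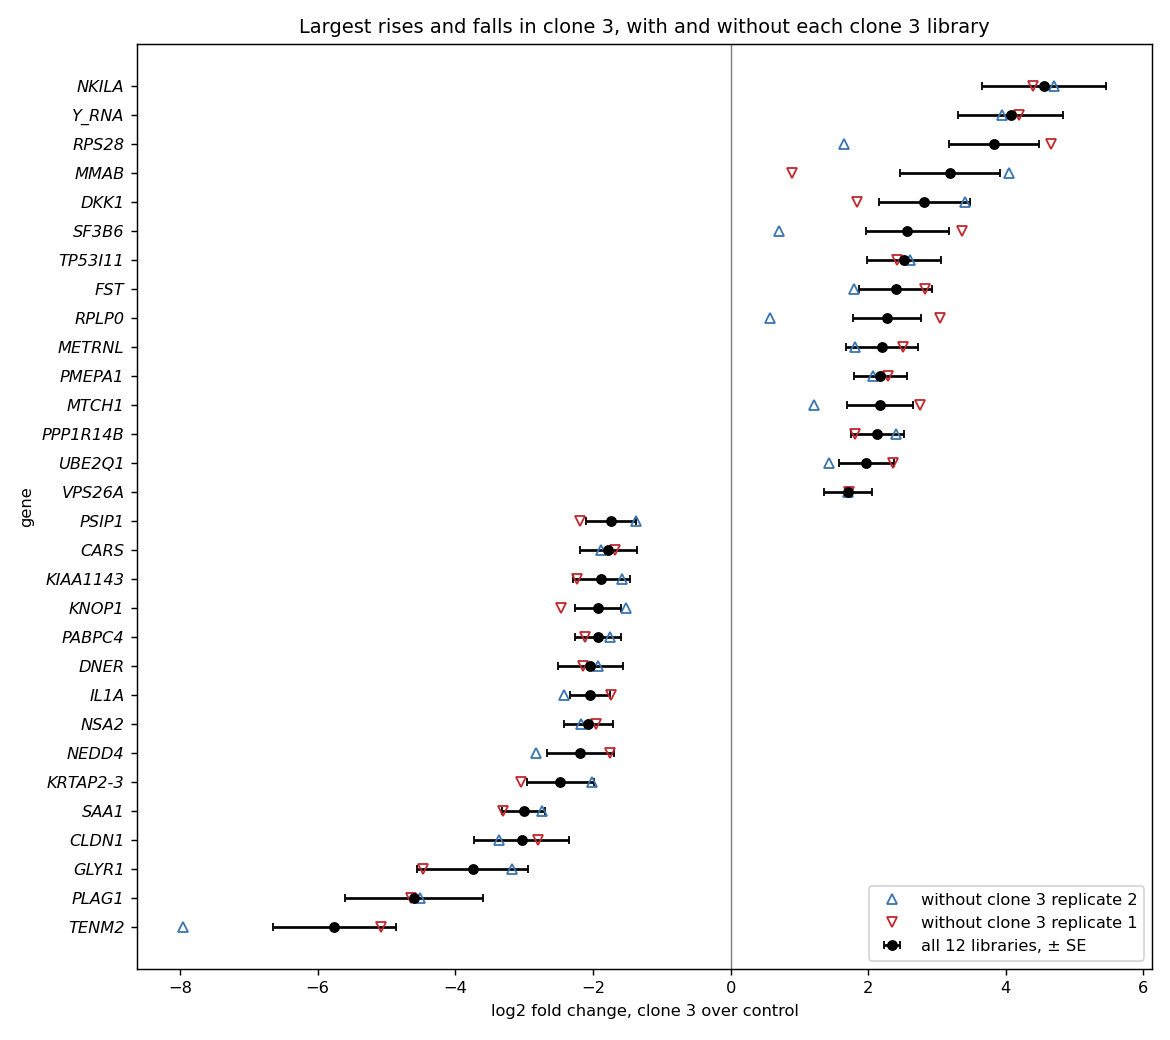
Fitted log2 fold change of clone 3 over control for the 15 largest rises and 15 largest falls under the naming rule. Black circles and bars are the estimate ± SE with all 12 libraries, and open triangles are the estimates without clone 3 replicate 2 (blue) or replicate 1 (red). RPLP0 and SF3B6 move to 0.57 and 0.71 without replicate 2 and MMAB to 0.89 without replicate 1, whereas SAA1, IL1A and VPS26A move little.

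The gene lists give the rest of the picture. Of 72 cytosolic ribosomal protein genes tested, 3 rose (RPS28, RPLP0 and RPLP2) and 0 fell. Over all 8595 genes tested, 0.303% rose and 0.361% fell. RPLP2 stood at 378 and 496 CPM in the control and at 741 and 1233 CPM in clone 3 (log2 change 1.18 ± 0.27 SE, edgeR adjusted p 0.0433). Of the 72, 55 lay above 0 (76.4%) with a median log2 difference of 0.32, against 51.2% and 0.02 over all 8595 genes tested. Without clone 3 replicate 2 the median of the ribosomal protein genes was 0.08, and without replicate 1 it was 0.44. Their summed level was 85038 and 88179 CPM on library totals in the control and 96806 and 112910 CPM in clone 3, while the summed mitochondrially encoded messenger RNAs were 283780 and 273190 CPM in the control and 287890 and 210390 CPM in clone 3. Ribosomal protein genes have many near-identical pseudogene copies, so counts of single members are uncertain. Of 67 nuclear-encoded respiratory chain genes, NDUFA4 rose, 0 fell, 70.1% lay above 0 and the median was 0.27, or 0.14 without clone 3 replicate 2. Of 27 proteasome subunits none passed, and the median was 0.37, or -0.08 without that library.

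The lists closest to the question named in the series title, innate immune signalling and PD-L1, held few calls in clone 3. None of 32 interferon-stimulated genes passed, with a median log2 difference of 0.29 and 19 above 0. The median was 0.30 without clone 3 replicate 2 and -0.01 without clone 3 replicate 1. It was 0.12 without control replicate 1 and 0.54 without control replicate 2. The interferon-stimulated genes with the highest CPM were IFITM3, PSME2 and OAS3. IFITM3, a membrane protein that blocks virus entry, stood at 1766 and 1178 CPM in the control and 2064 and 1503 CPM in clone 3. PSME2, a proteasome activator, had a log2 difference of 0.28, and OAS3, a sensor of double-stranded RNA, 1 of 0.30. None of 24 genes of cytosolic DNA and RNA sensing passed (median 0.23), none of 16 MHC class I genes (median 0.42, 13 above 0), none of 13 checkpoint and NKG2D ligands (median -0.11) and none of 25 NF-kappa-B feedback and target genes (median -0.07). Without clone 3 replicate 2 these medians were 0.33, 0.51, -0.08 and -0.21, in that order. Over the 19 cytokine and chemokine genes the median was 0.29, or -0.38 without clone 3 replicate 2. IL1B, the other interleukin 1, stood at 165 and 217 CPM in the control and at 212 and 404 CPM in clone 3, a log2 difference of 0.69 ± 0.30 (SE) with an edgeR adjusted p of 0.348. Its value lay on the other side of 0 from that of IL1A.

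Replication fork genes, the pathway of SMARCAL1, held 39 tested members of which 0 passed, with a median log2 difference of -0.24 and 15 above 0, and a median of -0.27 without clone 3 replicate 2. RPA3, a subunit of the single-strand binding complex that recruits SMARCAL1, stood at 335 and 499.9 CPM in the control and at 420 and 573 CPM in clone 3. BOD1L1, which protects stalled forks, stood at 509 and 390 CPM against 263 and 128 CPM, a log2 difference of -1.20 ± 0.31 (SE) with an edgeR adjusted p of 0.0826. PARP1, a sensor of DNA breaks, had a log2 difference of -0.32. None of 40 DNA replication genes, 40 mitosis genes or 19 p53 targets passed, with medians of -0.05, 0.14 and -0.11. Without clone 3 replicate 2 those medians were -0.06, 0.18 and -0.38. Of 12 basal epithelial markers 1 lay above 0 and none passed, with a median of -0.46, or -0.33 with 3 above 0 without clone 3 replicate 2. Without control replicate 1 the basal marker median was 0.0046 with 6 above 0, so the lower median rested on that control library. Of 40 mesenchymal and matrix genes none passed, with a median of 0.26, or -0.05 without clone 3 replicate 2.

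**Figure D3:**
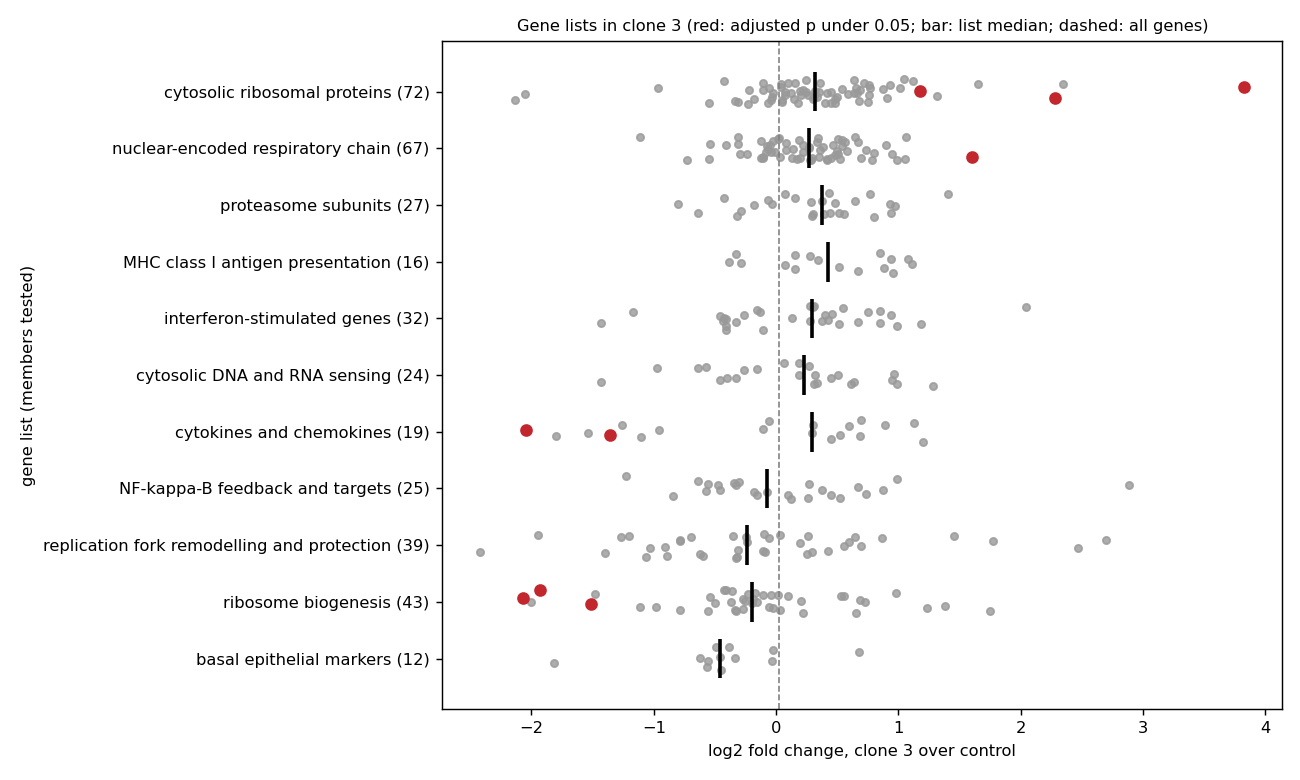
Log2 fold change of clone 3 over control for each tested member of 11 gene lists (points, spread vertically only for legibility), with the number tested in brackets. Red points passed the threshold, black bars are list medians and the dashed line is the median of all genes, 0.02. The ribosomal protein, respiratory chain and proteasome medians lie at 0.32, 0.27 and 0.37, and the basal marker median at -0.46. The basal marker median was 0.0046 without control replicate 1.

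Clone 3 was next set against clones 1 and 2, which carry the same knockout label and were fitted with it. Against the mean of those clones 158 genes passed (1.84%), 100 higher in clone 3 (1.16%) and 58 lower (0.675%), and 27 passed without clone 3 replicate 2. Of the 26 rises over control, 13 also passed here in the same direction, and of the 31 falls 11 did. Both comparisons hold the same 2 clone 3 libraries, so these counts are not separate evidence for the calls. SAA1 stood at 430 and 532 CPM in clone 1 and at 343 and 401 CPM in clone 2, so that both clone 3 libraries lay below all 4, with a log2 difference of -3.08 ± 0.29 (SE) and an edgeR adjusted p of 1.11e-06. IL1A stood at 955 and 851 CPM in clone 1 and at 305 and 440.5 CPM in clone 2 (log2 difference -2.54 ± 0.27 SE, edgeR adjusted p 7.8e-06). NKILA stood at 1.78 and 1.64 CPM in clone 1 and at 6.24 and 8.20 CPM in clone 2 (log2 difference 3.998). These 3 genes thus separated clone 3 from both other clones. PMEPA1 stood at 68.3 and 54.1 CPM in clone 1 and at 68.6 and 86.1 CPM in clone 2, with a log2 difference of 0.57 ± 0.29 (SE) and an edgeR adjusted p of 0.390, and DKK1 at 105 and 55.7 CPM in clone 1 and 83.2 and 216 CPM in clone 2. For NEDD4, NSA2 and PABPC4 the log2 differences from clones 1 and 2 were -0.63 ± 0.43, -0.55 ± 0.31 and -0.66 ± 0.29 (SE) and did not pass, which does not show that the clones are alike. Clones 1 and 2 were compared with the same 2 control libraries as clone 3, so their changes from control are not separate evidence.

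Genes lower in clone 3 than in clones 1 and 2 included secreted proteins that did not pass against control. The genes given here and for the higher side were picked from the largest differences and from inflammatory genes after their values were seen. LCN2, the siderophore-binding lipocalin 2, stood at 25.8 and 9.41 CPM in clone 3, at 118 and 115 CPM in clone 1 and at 74.9 and 110.7 CPM in clone 2, with 39.8 and 43.4 CPM in the control. WNT7B, a WNT ligand, stood at 1.33 and 1.52 CPM in clone 3, at 45.2 and 37.1 CPM in clone 1, at 38.5 and 24.6 CPM in clone 2 and at 3.32 and 2.48 CPM in the control. CCL2, a monocyte chemokine, stood at 2.67 and 0.304 CPM in clone 3, at 41.6 and 25.7 CPM in clone 1, at 7.28 and 10.2 CPM in clone 2 and at 4.42 and 3.72 CPM in the control. The clone 3 libraries of WNT7B and CCL2 lay beside the control, whereas those of both other clones lay above it. The log2 differences from the mean of clones 1 and 2 were -2.59 for LCN2, -4.57 for WNT7B and -3.58 for CCL2, with edgeR adjusted p of 0.000516, 0.000993 and 0.0171. EDN1, which also fell against control (-5.13), INHBA (-3.17), an activin subunit, and BMP7 (-3.10), a bone morphogenetic protein, were also lower in clone 3, as were SAA2 (-2.43) and complement C3 (-0.995). COL8A1, a collagen chain, had 0 counts in both clone 3 libraries and 143 counts over clones 1 and 2, which makes it at least 48.5-fold lower in clone 3 against a floor of 3 counts over its group. CCL2, INHBA, BMP7, SAA2, C3 and COL8A1 did not pass without clone 3 replicate 2, whereas LCN2, WNT7B and EDN1 passed.

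On the higher side, VGF, a neuroendocrine secreted peptide precursor, stood at 158 and 219.8 CPM in clone 3, at 30.3 and 27.3 CPM in clone 1, at 34.3 and 30.7 CPM in clone 2 and at 158 and 86.8 CPM in the control. IL24, an interleukin 10 family cytokine, stood at 49.3 and 41.0 CPM in clone 3, at 2.97 and 3.28 CPM in clone 1, at 10.4 and 14.3 CPM in clone 2 and at 14.4 and 34.7 CPM in the control. SEMA6B, a semaphorin, stood at 51.6 and 43.7 CPM in clone 3 and at 0 to 17.2 CPM in the 4 libraries of clones 1 and 2. Clone 3 lay above both other clones for all 3 genes, and for VGF it overlapped the control. The log2 differences were 2.62 ± 0.32 (SE) for VGF, 2.84 ± 0.39 (SE) for IL24 and 4.28 ± 0.64 (SE) for SEMA6B, with edgeR adjusted p of 4.81e-05, 0.000244 and 0.000516. NFKB1, the p105 and p50 subunit of NF-kappa-B, stood at 36.4 and 58.0 CPM in clone 3 and at 4.75 to 16.6 CPM in the other 2 clones (log2 difference 2.06, edgeR adjusted p 0.0233), and did not pass without clone 3 replicate 2. Of the 72 ribosomal protein genes 12 were higher in clone 3 than in clones 1 and 2 and 0 lower, with a median log2 difference of 0.44 against 0.04 over all genes. Over all genes tested 1.16% were higher and 0.675% lower. The list value without clone 3 replicate 2 is not given for this comparison. Against control the list median was 0.32, and 0.08 without that library.

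**Figure D4:**
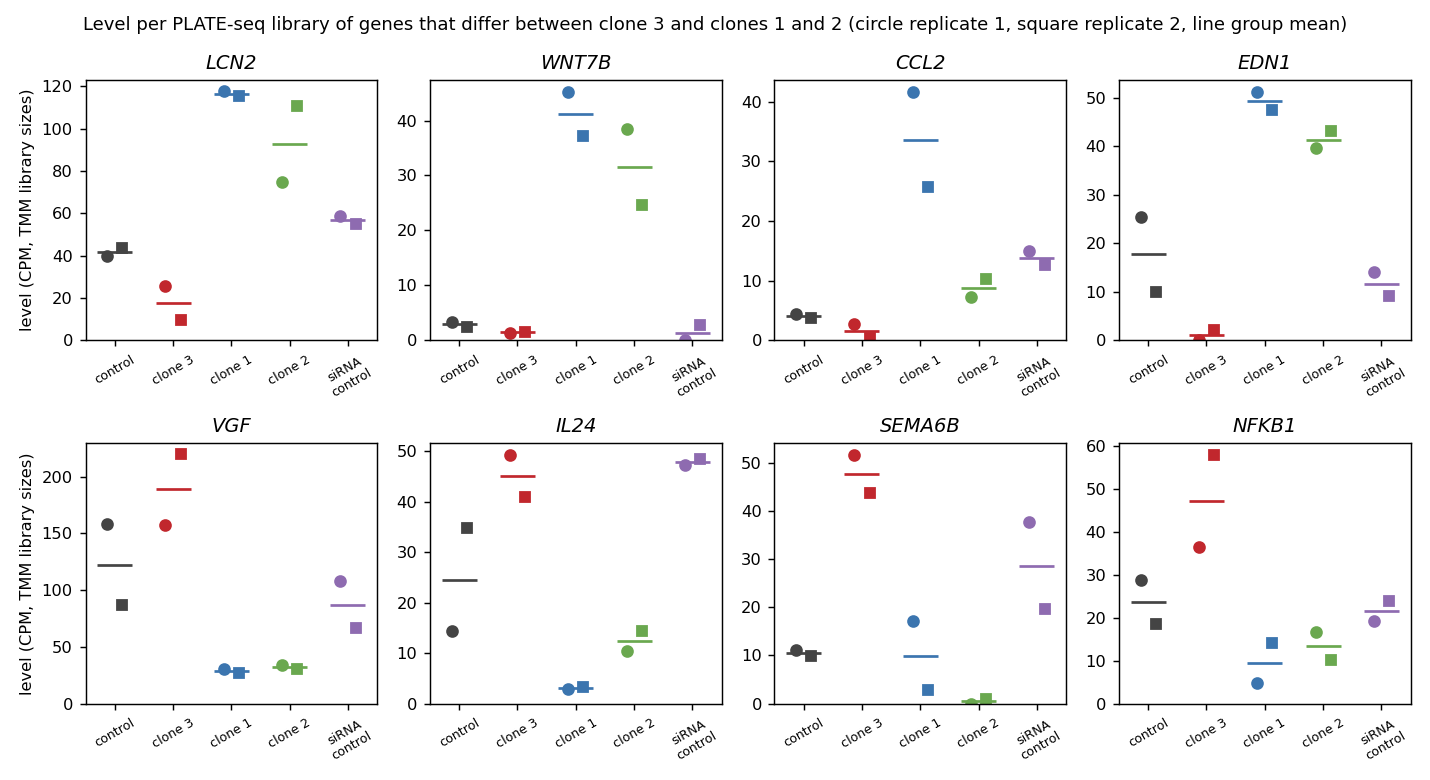
Level in CPM (linear axis from 0) in each PLATE-seq library of the control, clone 3, clones 1 and 2 and the siRNA control for 4 genes lower (LCN2, WNT7B, CCL2, EDN1) and 4 higher (VGF, IL24, SEMA6B, NFKB1) in clone 3 than in clones 1 and 2. Circles are replicate 1, squares replicate 2 and lines the mean of 2 libraries. For WNT7B the clone 3 libraries, at 1.33 and 1.52 CPM, lie beside the control libraries and below the 24.6 to 45.2 CPM of the other clones.

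The TruSeq libraries gave values for clone 1 against its own, separate control, in which 1089 of 17371 genes passed (6.27%), 3.96% higher and 2.31% lower. Of the 57 genes that passed in clone 3, 54 were tested there. Of all 8177 genes tested in both assays 8.72% passed in TruSeq. With the same sign 6 passed in both assays, PMEPA1, DKK1, S100A10 and NDUFA4, which rose, and PABPC4 and LPAR3, which fell. That is 10.5% of the 57 clone 3 genes, of which only 54 were tested in TruSeq, and 0.551% of the TruSeq genes. The 8.72% counts either sign among genes tested in both assays, so it is not on the scale of the 10.5%. The counts to set beside it are those of both signs together, over the 24 rises and 30 falls tested in TruSeq. The overlap was not tested. Of the 24 rises tested in TruSeq 4 passed with the same sign and 1 with the other. Of the 30 falls 2 and 4 did. S100A10, the light chain of the annexin A2 complex, is outside the naming rule and stood at 226 and 221 CPM in the PLATE-seq control and at 415 and 771 CPM in clone 3. In TruSeq it stood at 71.0 ± 2.00 CPM in the control and 167 ± 4.95 CPM in clone 1 (SD, n = 3 each), a log2 change of 1.24 with an edgeR adjusted p of 4.74e-05. PMEPA1 stood at 8.54 ± 1.30 CPM in the TruSeq control and 17.6 ± 1.03 CPM in clone 1 (SD, n = 3 each), a log2 change of 1.05 with an edgeR adjusted p of 0.00403. The log2 changes of DKK1 and NDUFA4 in TruSeq were 0.55 and 0.53, smaller than the 2.82 and 1.60 of clone 3, on another assay.

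A further 5 genes passed in both assays with opposite signs. IL1A fell in clone 3 and stood at 115 ± 8.29 CPM in the TruSeq control and 187 ± 15.4 CPM in TruSeq clone 1 (SD, n = 3 each), a rise of 0.70 ± 0.08 (SE) on the log2 scale with an edgeR adjusted p of 0.00307. CLDN1 rose by 1.24, EDN1 by 1.39 and DNER by 0.54 on the log2 scale in TruSeq clone 1, against falls in clone 3. MIS18A, a centromere loading factor named after its values were seen, stood at 31.0 and 26.1 CPM in the PLATE-seq control and at 106 and 80.5 CPM in clone 3, and fell by 0.50 on the log2 scale in TruSeq clone 1. SAA1 did not pass in TruSeq clone 1, where its log2 difference was 0.48 with an edgeR adjusted p of 0.0833. The clone and the assay differ together between these data, and whether the 2 changes differ was not tested across assays. Within PLATE-seq the difference between clone 3 and clones 1 and 2 passed for IL1A, CLDN1, DNER, EDN1 and MIS18A, as given above or in the fit (MIS18A, 1.46 with an edgeR adjusted p of 0.0165).

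**Figure D5:**
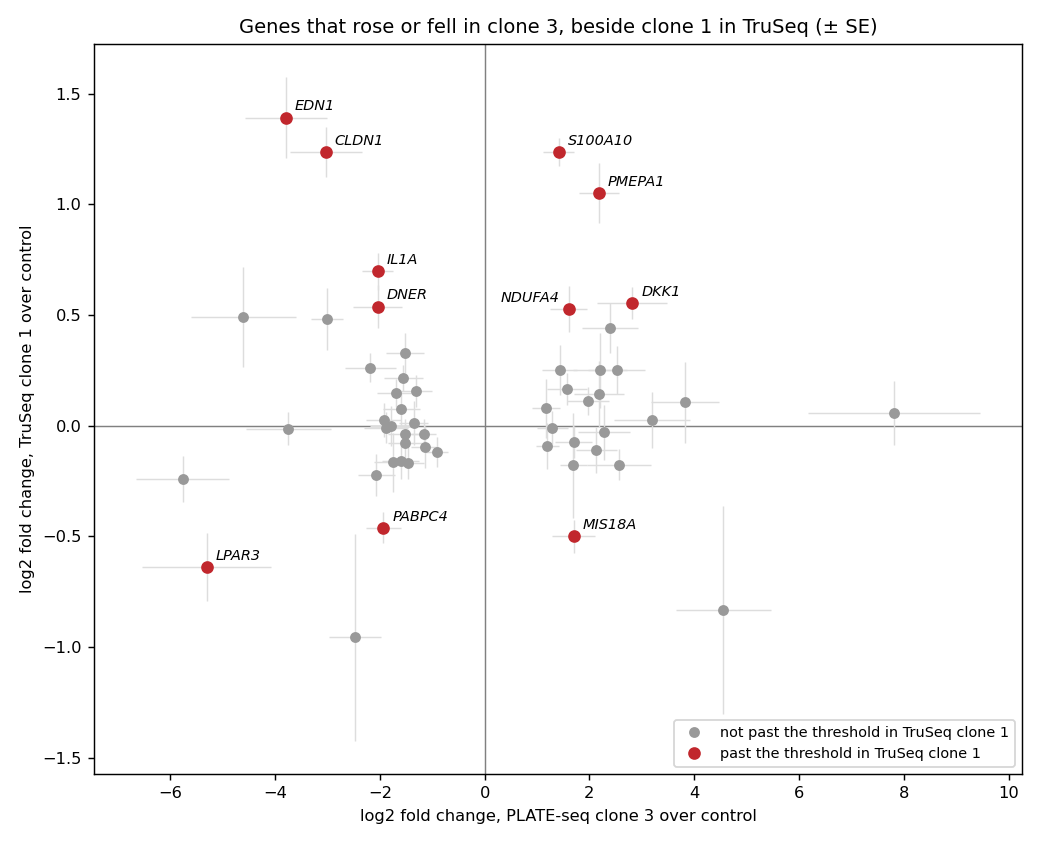
Log2 fold change of the 54 genes that passed in PLATE-seq clone 3 and were tested in TruSeq, with clone 3 over its control on the horizontal axis and TruSeq clone 1 over its control on the vertical axis, each ± SE. Red points, with names, also passed in TruSeq clone 1. EDN1, CLDN1, IL1A and DNER lie at the upper left, lower in clone 3 and higher in TruSeq clone 1.

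The siRNA control libraries gave a comparison with another control group, although those cells had been transfected. Against the siRNA control 24 genes passed (0.279%), 12 higher in clone 3 and 12 lower, of which 13 were among the 57 (8 of the 26 rises and 5 of the 31 falls). Both clone 3 libraries lay beyond both siRNA control libraries, on the side of the call, for 18 of the 26 rises and 28 of the 31 falls. The share over all genes tested is not given for this. The 57 were called with the same clone 3 libraries, so these counts are not separate evidence. SAA1 stood at 320.0 and 524 CPM and IL1A at 536 and 715 CPM in the siRNA control, in both cases above clone 3. CSF3 stood at 1379.8 and 1504 CPM there, higher than in the control itself. Other genes lay near clone 3 in the siRNA control. ATP6V0B stood at 923 and 594 CPM there, with a log2 difference for clone 3 of 0.08, and METRNL, DKK1, MTCH1 and Y_RNA had differences of 0.37, 0.63, 0.86 and 1.06. On the lower side PLAG1 had -0.29 and CLDN1 -0.91, as given above, and CARS had -0.38. PMEPA1 and PPP1R14B, with log2 differences of 1.41 and 1.07, did not pass against it either.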

How the data were processed

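The deposited tables hold whole-number counts for each gene symbol. The authors used STAR and HTSeq with hg38, per the submitters' processing notes. Versions, annotation and strand setting are not given in the sources used here. Spike-in rows were left out of totals and tests. They held 351 to 632 counts in each replicate 1 and 3 to 17 counts in each replicate 2 PLATE-seq library, at most 0.0534% of a total.

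Each assay was fitted separately with edgeR 4.0.16 (R 4.3.3, filterByExpr, TMM, group as the only term, quasi-likelihood F test, two-sided, Benjamini-Hochberg over all genes). The 12 PLATE-seq libraries gave 6 residual degrees of freedom and a biological coefficient of variation of 0.330, and the 6 TruSeq libraries 4 and 0.123. PLATE-seq totals were 807861 to 3068887 counts and TruSeq totals 10257584 to 19270648. Levels are CPM on TMM library sizes unless called CPM on library totals. SEs were computed as the log2 change over the square root of the F statistic. Ratios carry exact Clopper-Pearson intervals at 95%, which, like the floor of 3 counts, cover counting error only, as PCR copies of a molecule are counted too. The script was tested on simulated counts.

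The labels call the libraries biological replicates and say no more, so p-values measure the spread between these libraries, which may be technical. Replicate numbers were not taken to pair libraries, because no label ties a number to a batch or day and over 15 pairs of groups the correlations of same-numbered deviations were -0.0969 to 0.126 and 1 was over 0.1. The spike-in counts above do differ with the number in all 6 groups.

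Genes were named by rule: SMARCAL1, CD274, the 15 largest rises and 15 largest falls past the threshold with a mean of at least 20 CPM in the higher group and no overlap, list members past the threshold, and up to 3 of the members of a list described with the highest CPM. The abundant members of 1 list are not reported here. The members, lists and tests were chosen with earlier results of these data known. Of 36 lists, those not described held none past the threshold. Alternatives were other scalings, filters, tools (DESeq2 1.42.0, limma-voom 3.58.1), controls, a replicate block, single libraries left out and, chosen after seeing the data, a robust fit and list medians with a library left out. Gene positions are from GENCODE release 29 on GRCh38 by symbol, 1-based. Promoter windows are from RefSeq on GRCh38.p14, with no entry for SAA1 or CSF3.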

Additional observations from a re-analysis of the deposited data

Results flagged for a closer look

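The change from control differed between clone 3 and the mean of clones 1 and 2, by a test of the difference in the same edgeR fit, for 158 genes. Among the named genes the log2 difference, clone 3 minus the mean of clones 1 and 2, was positive for 11. It was 3.998 for NKILA, 2.21 for Y_RNA, 3.91 for RPS28, 3.11 for MMAB, 2.04 for SF3B6 and 1.74 for FST. It was 1.77 for RPLP0, 1.65 for MTCH1, 1.48 for PPP1R14B, 1.58 for VPS26A and 1.15 for RPLP2. It was negative for 8 named genes, at -5.27 for TENM2, -2.97 for CLDN1, -3.08 for SAA1, -2.54 for IL1A, -2.01 for DNER, -1.40 for PTPN14, -1.22 for CSF3 and -1.28 for DDX27. The control cancels from this difference, but its clone 3 libraries are those by which the named genes were called. Groups of 2 or 3 libraries are too small for a test of single outlying libraries.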

How the results depend on the processing

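For clone 3 against control, 57 genes passed, and 156 passed with no filter, 36 with a filter at 20 CPM, 93 in DESeq2, 3 with only the 4 libraries and 24 with the siRNA control. With single libraries left out the count was 7 to 131. The split of 26 higher and 31 lower was 19 and 31 with RLE size factors, 20 and 29 without scaling, 15 and 39 in limma-voom and 15 and 29 in the robust fit. Against clones 1 and 2, 158 passed, with 271 without a filter, 291 in limma-voom and 27 to 233 with a library left out. For clone 1 in TruSeq 1089 passed, with 199 to 1145 when a library was left out. The lowest were 199, 309, 369 and 518, without control replicate 2, clone 1 replicates 3 and 2, and control replicate 1. The 6 genes shared by sign were 11 at an adjusted p of 0.10, 11 with no filter and 0 to 6 with a library left out. With a replicate block the counts were 53, 153, 2387 in TruSeq and 7 shared. Of the 57 genes 49 passed under the block. CARS and PTPN14 (0.0596), MMAB (0.0596), METRNL (0.0584), SF3B6 (0.0650) and LPAR3 (0.0625), with adjusted p in brackets, were among the 8 that did not. The numbers were not taken to pair libraries, although spike-in counts differ with them in every group. Causes were not tested. None of the genes past the threshold that were named by rule changed sign in any alternative, which their lack of overlap partly fixes. Among the 57, TCF25, outside that rule, did change sign, from -1.60 to 0.21 with the siRNA control. Named genes that did not pass changed sign with the siRNA control (CD274 -0.86, PSME2 -0.0099, OAS3 -0.22, PARP1 0.050) and with single libraries left out (PSME2 -0.015 to 0.57). SMARCAL1 had a log2 difference of 0.80 to 7.0 over the alternatives. Without clone 3 replicate 2 it did not pass the filter. Depth limits low genes, since 3 counts are 3.32 and 3.72 CPM in the control, and the shallow control can hide falls below that level.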

Other observations

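Chromosome 13 had the highest median difference of all chromosomes and was picked after their values were seen, with no test. Of 67 genes tested there with a mean of at least 20 CPM, 48 lay above 0 (71.6%), with a median log2 difference of 0.32 against 50.02% and 0.00021 over all 4282 such genes. The median was 0.32 in clone 3 replicate 1 and 0.41 in replicate 2, each against the control mean, and 0.42 against clones 1 and 2. No gene of this chromosome passed the threshold. The next highest median was 0.20, for chromosome 14, with 133 genes.

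The 4126 genes with a GENCODE transcript length and a mean of at least 20 CPM, of which 23 rose and 24 fell, were split into 4 groups of 1030 to 1033 by the median length of their transcripts. In the group with the longest transcripts the median log2 difference was -0.11, and 11 of these genes fell and 2 rose. In the group with the shortest the median was 0.09, and 4 fell and 8 rose. For the longest the median was -0.03 in clone 3 replicate 1 and -0.15 in replicate 2. With no minimum CPM, median transcript length was 836 bases for the 24 rises with a length and 1488 bases for 30 falls. It was 956 bases for the 8206 genes tested that have a length. A gene's length here is the median over all its annotated transcripts, such as 569 bases for TENM2 and 738 for PABPC4. It need not be the length of the transcript that was counted.

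LMOD3, the muscle actin nucleator leiomodin 3, had 327 counts in clone 3 replicate 1 and 153 in siRNA control replicate 1, against 5 in clone 3 replicate 2 and 0 to 2 in the other 9 PLATE-seq libraries.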
